A study of Mus musculus with 6 samples.

Results

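The MYC, MAX and MXD network is a family of transcription factors that form dimers through basic helix-loop-helix leucine zipper domains. Its 10 genes were chosen by name and by role, with earlier results of these data known. They are 3 activators (Myc, Mycn and Mycl), 2 dimer partners (Max and Mlx) and 5 antagonists (Mxd1, Mxd3, Mxd4, Mxi1 and Mnt), out of 45706 genes in the table of counts. All 10 had counts, and all 10 were among the 15184 genes that passed the filter on low counts.

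MYC proteins bind DNA as dimers with MAX and activate genes of ribosome assembly, nucleotide synthesis and cell growth. MXD proteins, MXI1 and MNT compete for MAX, bind the same E-box sequence and recruit SIN3 and histone deacetylases. MLX forms dimers either with part of these antagonists or with the glucose-responsive MONDO proteins. In blood formation Myc is known for the balance between self-renewal and differentiation of hematopoietic stem cells, in which Mycn is also expressed.

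RNA of LSK cells (lineage-negative, Sca-1-positive, c-Kit-positive hematopoietic stem and progenitor cells) was sequenced to find the early changes after deletion of Setd1b, a histone H3 lysine 4 methyltransferase. The cells were sorted from the bone marrow of 3 cKO and 3 Ctrl mice, and each mouse gave 1 library. Total counts were 14512317, 15265730 and 14260925 in cKO mice AI02, AI55 and AH74, and 13003573, 21277519 and 16559472 in Ctrl mice AI03, AI54 and AI56. By the numbers of their libraries, which the count table carries, the samples form 2 series, AI02, AI55 and AI03 in the first and AH74, AI54 and AI56 in the second, although neither the labels nor the paper name such series. AI03 is the sole Ctrl mouse of the first series and AH74 the sole cKO mouse of the second. Each difference within a series below therefore rests on a single mouse on one side.

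By the paper, all mice were males of a C57BL/6J background and littermates, although no litters are named. They were 16 weeks of age except for AH74 with 17 weeks. The cKO mice were homozygous (FD/FD) and the Ctrl mice heterozygous (FD/+) for a conditional Setd1b allele with loxP sites around exon 5. Both groups carried 1 copy of Rosa26-Cre-ERT2 (RC/+) and received 4.5 mg of tamoxifen per day by gavage, for 4 days and, after a pause of 3 days, for another 2 days. This scheme is that of the labels, and the paper gives fewer doses. The marrow was taken 3 days after the last dose. Both groups therefore had tamoxifen and active Cre, the Ctrl cells also lose 1 Setd1b allele, and Cre acts in almost all tissues, the cells around the LSK cells included.

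The targeted gene, Setd1b (chromosome 5, 123142193 to 123168629 in GRCm38), had 272, 288 and 314 CPM (counts scaled to library size) in AI02, AI55 and AH74, against 221, 194 and 223 CPM in AI03, AI54 and AI56. Every library labelled cKO thus lay above every Ctrl library (log2 fold change 0.46, standard error 0.073, adjusted p = 0.00146 in edgeR). Counts of the whole gene do not check the loss of exon 5. Directions here are those of libraries labelled cKO against Ctrl.

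The sorted population was checked with marker genes. Kit, the c-Kit receptor, lay between 395 and 514 CPM over the 6 libraries, and Ly6a, which encodes Sca-1, between 35.8 and 56.3 CPM, with overlap between the groups for both. The summed level of 3 T cell markers (Cd3e, Cd3d, Cd4) was at most 1.21 TPM (counts scaled to exon length and library) in any library. It was 1.21, 1.07 and 1.12 TPM in AI02, AI55 and AH74 and 0.428, 0.795 and 0.530 TPM in AI03, AI54 and AI56. The level was thus low in both groups but higher in each cKO library. Mature neutrophil markers (Ly6g, S100a8, S100a9, Camp) summed to 2.25, 2.33 and 0.831 TPM in AI02, AI55 and AH74 and to 8.08, 4.22 and 8.06 TPM in AI03, AI54 and AI56, low in both groups but lower in each cKO library. Markers of early lineage priming were abundant, with Mpo, an enzyme of granulocyte and monocyte precursors, between 2299 and 2933 CPM in Ctrl.

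The levels of many marker genes differed between the groups. Of 44 markers of 12 kinds of cells, 31 passed the filter, 4 were higher and 16 lower in libraries labelled cKO, beside 3.88% and 3.79% of all 15184 genes tested. Fgd5, a stem cell enriched marker, had 37.3, 34.9 and 38.7 CPM in AI02, AI55 and AH74 and 13.1, 10.7 and 14.8 CPM in AI03, AI54 and AI56, with the groups far apart (log2 fold change 1.53). Procr and Mecom, of the same kind, also rose, with log2 fold changes of 1.43 and 0.45. Hlf, the most abundant of this kind at 19.6 TPM, was not a DEG and overlapped, between 103 and 112 CPM in cKO and between 93.2 and 114 CPM in Ctrl. Slamf1 was not a DEG either, between 13.3 and 14.1 CPM in cKO and between 12.9 and 14.8 CPM in Ctrl. Granulocyte-monocyte markers (Mpo, Elane, Ctsg, Prtn3, Csf1r) summed to 493, 366 and 262 TPM in the cKO libraries and to 1678, 1422 and 1332 TPM in Ctrl. All 5 fell, and Mpo, the most abundant, fell by 2.89 on the log2 scale. Dntt, a DNA polymerase of lymphoid precursors, had 3.62, 5.97 and 8.42 CPM in cKO and 271, 549 and 219 CPM in Ctrl, so that every cKO library was far lower (log2 fold change -5.86). It is the most extreme of its kind, in which 3 of 5 markers were lower DEGs, with a median log2 fold change of -0.68. Flt3 and Satb1, of the same kind, overlapped between the groups and were not DEGs. Flt3 lay between 177 and 221 CPM in cKO and between 192 and 280 CPM in Ctrl. Satb1 lay between 157 and 196 CPM in cKO and between 172 and 235 CPM in Ctrl. Car1, a carbonic anhydrase of erythroid precursors, had 0.804, 1.46 and 0.982 CPM against 73.9, 47.3 and 53.2 CPM, again far apart (log2 fold change -5.72). Gata1, of the same kind, differed less, between 23.1 and 26.7 CPM in cKO and between 33.9 and 44.9 CPM in Ctrl. In such bulk samples, fewer cells of a type and less RNA per cell cannot be told apart, and the part of these markers in the results below was not tested.

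Of the 10 network genes, 2 were DEGs at an adjusted p under 0.05, 1 with more and 1 with fewer transcripts in libraries labelled cKO. Among all 15184 genes tested, 7.67% were DEGs, 3.88% higher and 3.79% lower. The groups did not overlap for 4 of the 10 genes (Myc, Mycn, Mlx and Mxd4), against 27.3% of all genes tested. DESeq2 called 1 lower and 0 higher of the 10, beside 4.42% and 3.97% of all genes tested. An unadjusted p under 0.05 in edgeR was reached by 2 lower and 1 higher of the 10, beside 11.5% and 11.3% of all genes tested (22.9% in total). Both DEGs were activators, and they moved in opposite directions.

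Compared by length, Myc was the most abundant of the 10 genes, with a mean of 196 TPM over the 6 libraries and a level above that of 98.2% of the genes tested. Max followed at 50.8 TPM, below Myc in 6 of 6 libraries. Mycn (23.2 TPM), Mlx (17.2 TPM) and Mnt (16.5 TPM) came next. In the 3 cKO libraries Mycn (23.8 to 35.5 TPM) was above Mlx and Mnt (at most 17.7 TPM), whereas in Ctrl the order was not clear, with Mycn above Mlx in AI54 alone. Mlx was above Mnt in 3 of 6 libraries. In every library, Mnt was then followed by Mxi1 (12.9 TPM), Mxd4 (11.8 TPM), Mxd1 (8.95 TPM), Mxd3 (3.50 TPM) and Mycl (0.213 TPM) in this order. Mycl rested on 7 to 14 counts per library.

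Myc (ENSMUSG00000022346, chromosome 15, 61985341 to 61990374), the principal activator of the network, had 363, 386 and 387 CPM in AI02, AI55 and AH74 and 475, 482 and 515 CPM in AI03, AI54 and AI56. The cKO libraries were close to each other and all lay below the lowest Ctrl library. The means were 379 ± 13.4 CPM in cKO and 491 ± 21.6 CPM in Ctrl (SD, n = 3 each). This is a 1.30-fold lower level (log2 fold change -0.37, standard error 0.062, adjusted p = 0.00170 in edgeR, adjusted over all genes tested). The difference was -0.34 within the first and -0.36 within the second library series.

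Mycn (ENSMUSG00000037169, chromosome 12, 12936096 to 12941914), its paralog, had 57.2, 69.1 and 101 CPM in AI02, AI55 and AH74 and 39.8, 53.2 and 46.6 CPM in AI03, AI54 and AI56. All cKO values exceeded all Ctrl values, but AI02 was only slightly above AI54, and AH74 stood apart from the other cKO libraries. The means were 75.9 ± 22.8 CPM in cKO and 46.5 ± 6.68 CPM in Ctrl (SD, n = 3 each), a 1.62-fold higher level (log2 fold change 0.70, standard error 0.16, adjusted p = 0.0139 in edgeR). The difference was 0.66 within the first and 1.02 within the second library series, in which AH74 is the sole cKO mouse. Without AH74 the fitted difference was 0.43 (adjusted p = 0.0561 in edgeR) and without AI56 0.69 (adjusted p = 0.0645 in edgeR). DESeq2 gave 0.70 (adjusted p = 0.0993). Mycn was thus a DEG under 10 of 13 other settings. Adjusted p-values over these ran from 1.1e-04 to 0.0993, apart from 1.1e-12 in edgeR without a filter on low counts. That setting called 1682 genes in all.

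Because Myc fell and Mycn rose, their proportion shifted. The ratio of Myc to Mycn in TPM was 7.55, 6.65 and 4.55 in AI02, AI55 and AH74 and 14.2, 10.8 and 13.1 in AI03, AI54 and AI56. Mycn supplied 11.7%, 13.1% and 18.0% of the summed TPM of the activators in the cKO libraries and 6.57%, 8.48% and 7.07% in the Ctrl libraries. Myc transcripts remained the larger share in each of the 6 libraries. Mycl (ENSMUSG00000028654), the third activator, lay between 0.448 and 0.995 CPM with overlap between the groups, and its standard error was large at this level (log2 fold change -0.098, standard error 0.52). Its sign differed between the library series (-0.60 and 0.29) and changed without AI55 (0.051) or AI03 (0.19), and its value was -0.20 without AI02, -0.16 without AH74 and -0.33 without AI56.

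**Figure D1:**
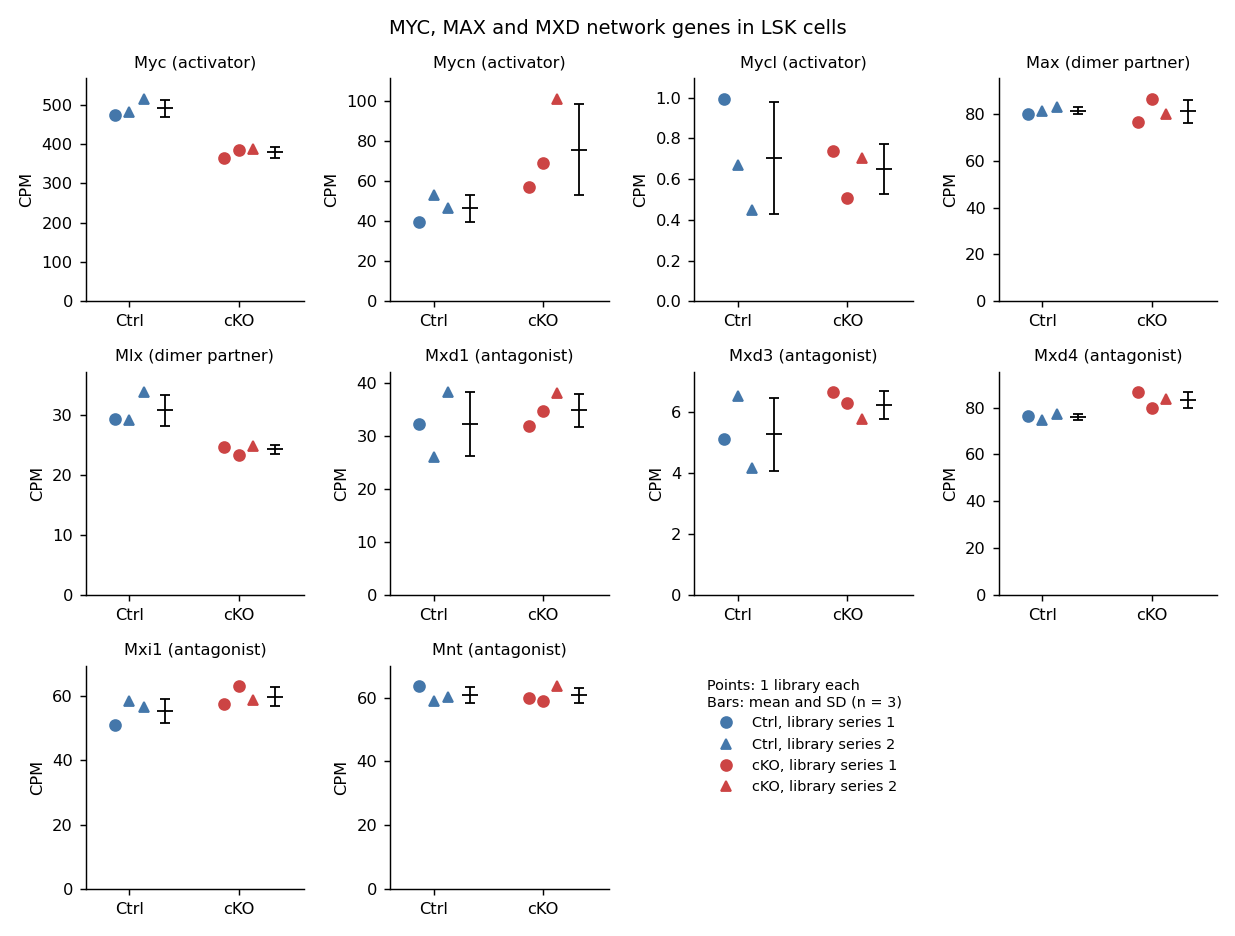
CPM of the 10 network genes in each library, with 1 point per mouse (circles for the first and triangles for the second library series) and bars for the mean and SD of 3 libraries, on axes that start at 0. Myc lay between 363 and 387 CPM in cKO and between 475 and 515 CPM in Ctrl, whereas Mycn lay between 57.2 and 101 CPM in cKO and between 39.8 and 53.2 CPM in Ctrl.

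Max (ENSMUSG00000059436), the obligate partner of MYC and of most antagonists, had 76.7, 86.5 and 80.1 CPM in AI02, AI55 and AH74 and 80.0, 81.3 and 83.0 CPM in AI03, AI54 and AI56. The groups overlapped fully, with the highest and the lowest value both in cKO libraries (log2 fold change -0.0060, standard error 0.072). The estimate is so near 0 that it changed sign with upper-quartile scaling.

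Mlx (ENSMUSG00000017801), the MAX-like partner of MNT, MXD proteins and MONDO proteins, had 24.7, 23.4 and 24.8 CPM in AI02, AI55 and AH74 and 29.4, 29.2 and 33.8 CPM in AI03, AI54 and AI56. All cKO libraries were below all Ctrl libraries, by -0.29 within the first and -0.34 within the second series. It missed the threshold (log2 fold change -0.34 ± 0.10, standard error; adjusted p = 0.0573 in edgeR) and missed it under each of 13 other settings, with adjusted p-values from 0.0536 to 0.202.

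None of the 5 antagonists was a DEG in edgeR or in DESeq2, beside 7.67% and 8.39% of all genes tested. An unadjusted p under 0.05 was reached by 0 of 5, beside 22.9% of all genes tested. The log2 fold changes of the antagonists ran from -0.0026 for Mnt to 0.23 for Mxd3, with a median of 0.12, beside 0.00023 for all genes tested. Mnt (ENSMUSG00000000282), the broadly expressed antagonist, had 59.8, 58.8 and 63.5 CPM in AI02, AI55 and AH74 and 63.6, 58.9 and 60.1 CPM in AI03, AI54 and AI56. Its groups overlapped, and its sign differed between the library series (-0.10 and 0.095). Its value is so near 0 that upper-quartile scaling, which moves the median of all genes by 0.015, changes its sign.

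Mxd4 (ENSMUSG00000037235), a MXD protein found in many tissues, had 86.4, 79.9 and 83.6 CPM in AI02, AI55 and AH74 and 76.5, 74.7 and 77.2 CPM in AI03, AI54 and AI56. It was the sole antagonist whose groups did not overlap, by a small margin (log2 fold change 0.13, standard error 0.069, adjusted p = 0.284 in edgeR). Mxi1 (ENSMUSG00000025025), also named MXD2, lay between 57.6 and 63.0 CPM in cKO and between 51.0 and 58.4 CPM in Ctrl (log2 fold change 0.11, standard error 0.082, with 0.072 without AI55 and 0.057 without AI03). Mxd1 (ENSMUSG00000001156), known for its induction during myeloid differentiation, lay between 31.8 and 38.0 CPM in cKO and between 26.1 and 38.2 CPM in Ctrl, so that its Ctrl range enclosed the cKO range (log2 fold change 0.12, standard error 0.13). Its value was 0.18 without AI02, 0.047 without AH74, 0.26 without AI56 and, with the other sign, -0.022 without AI54. Mxd3 (ENSMUSG00000021485), which is linked to S phase, was the least abundant antagonist, between 5.75 and 6.63 CPM in cKO and between 4.16 and 6.53 CPM in Ctrl (log2 fold change 0.23, standard error 0.22, with 0.43 without AI54 and 0.081 without AI56).

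**Figure D2:**
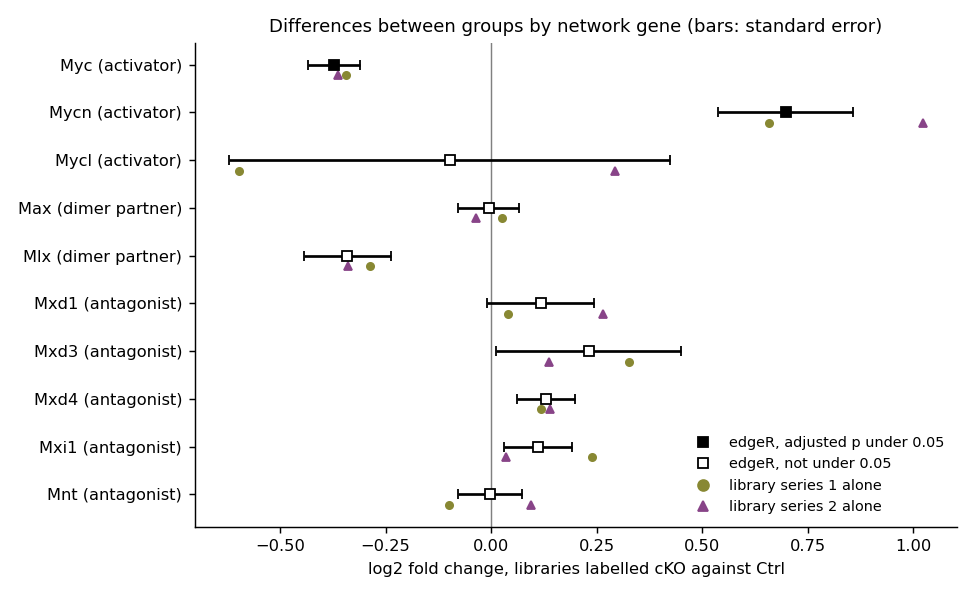
Log2 fold changes of the 10 network genes, libraries labelled cKO against Ctrl, with standard errors (squares, filled for an adjusted p under 0.05) and the differences of mean log2 CPM within each library series (circles and triangles). Myc at -0.37 and Mycn at 0.70 are filled, Mlx at -0.34 is not, and the 5 antagonists lie between -0.0026 and 0.23.

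Activators were then set against antagonists by their summed level. The activators summed to 204, 215 and 197 TPM in AI02, AI55 and AH74 and to 244, 246 and 209 TPM in AI03, AI54 and AI56. The antagonists summed to 59.5, 58.7 and 51.9 TPM in the cKO libraries and to 54.7, 52.5 and 44.2 TPM in the Ctrl libraries. In TPM, each sum alone overlapped between the groups, with AI56 the lowest Ctrl library in both. Unlike CPM here, TPM was not scaled between libraries by TMM, and AI56 was low in TPM for other genes too. Max, for instance, had 43.2 TPM in AI56 and 52.9 TPM in AI03, but 83.0 and 80.0 CPM. The overlap of the sums is therefore a statement about TPM alone. The ratio of activators to antagonists was 3.43, 3.67 and 3.80 in AI02, AI55 and AH74 and 4.46, 4.68 and 4.74 in AI03, AI54 and AI56, with no overlap. On the log2 scale the difference of means was -0.35, against an SD between libraries of one group of 0.062, and it was -0.33 within the first and -0.31 within the second series. This sum rests on Myc, which supplied between 81.9% and 93.3% of the activator level. When the genes of each role were weighted alike, as the mean of log2 (TPM + 0.5), the difference was -0.047. As a score over chosen genes, the ratio was not tested.

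**Figure D3:**
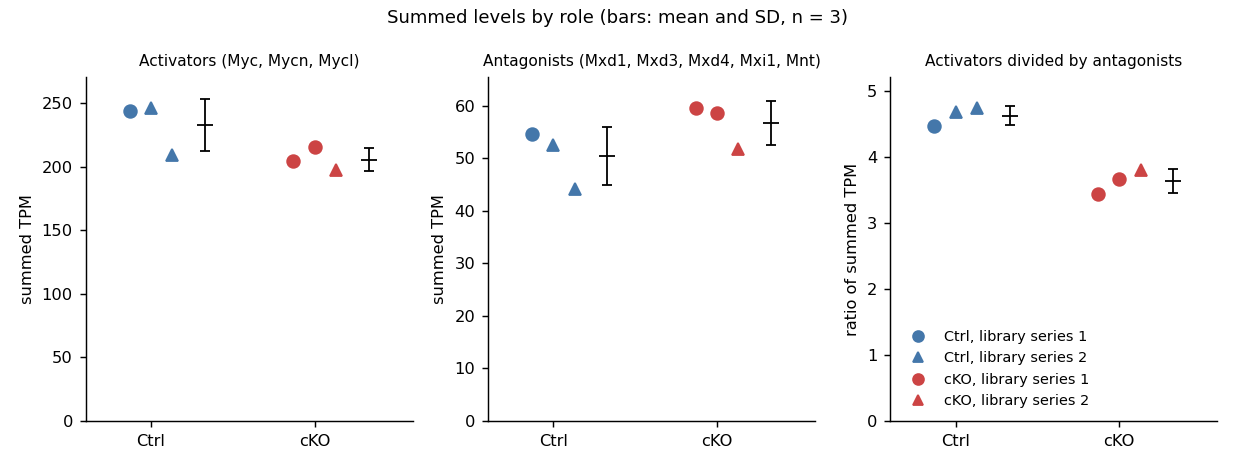
Summed TPM of activators and of antagonists and the ratio of these sums in each library, with bars for the mean and SD of 3 libraries and axes that start at 0. The ratio lay between 3.43 and 3.80 in the cKO libraries and between 4.46 and 4.74 in the Ctrl libraries.

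Of 3 further partners of the network, 2 were tested and 0 were DEGs in edgeR or DESeq2, while both had an unadjusted p under 0.05, as had 22.9% of all genes tested. Mlxip and Mlxipl are named here after their values were seen, and Mga as the most abundant of the list. Mga, a MAX partner of a repressive Polycomb complex, had 376, 385 and 380 CPM in AI02, AI55 and AH74 and 374, 314 and 342 CPM in AI03, AI54 and AI56. Its lowest cKO value lay just above its highest Ctrl value (log2 fold change 0.15, standard error 0.068, adjusted p = 0.205 in edgeR), and without AI54 the log2 fold change was 0.087. Mlxip, which encodes the MONDOA partner of MLX, had 151, 161 and 142 CPM against 137, 134 and 121 CPM, likewise without overlap (log2 fold change 0.21, standard error 0.071, adjusted p = 0.0866 in edgeR). Mlxipl, for ChREBP, did not pass the filter and was at or below 0.230 CPM in each library.

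Of 15 MYC cofactors, 1 was lower and 0 were higher in edgeR and likewise in DESeq2, and 2 lower and 1 higher had an unadjusted p under 0.05. These shares are near those of all genes tested, 7.67% by adjusted and 22.9% by unadjusted p. Ruvbl2, an ATPase of chromatin remodelling complexes, had 114, 114 and 121 CPM in AI02, AI55 and AH74 and 129, 133 and 153 CPM in AI03, AI54 and AI56. It was just past the threshold (log2 fold change -0.25, standard error 0.073, adjusted p = 0.0469 in edgeR) and a DEG under 6 of 13 other settings, with adjusted p-values from 0.0161 to 0.191. It missed the threshold with upper-quartile scaling (-0.24, adjusted p = 0.0588 in edgeR), with the library series as a covariate (-0.21, adjusted p = 0.0886 in edgeR) and without AI02, AI55, AH74, AI54 or AI56, at log2 fold changes from -0.29 to -0.18. The median log2 fold change of the list was -0.037.

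A further list held 11 genes, corepressors of the SIN3-HDAC and NCOR complexes and Smc3, whose product is reported to bind MXD proteins. Of these, 0 were DEGs in edgeR or DESeq2, beside 7.67% and 8.39% of all genes tested. An unadjusted p under 0.05 was reached by 0 of 11, beside 22.9% of all genes tested. The log2 fold changes of the 11 genes lay between -0.10 and 0.11, and the most abundant, Rbbp7, had 103 TPM. Of 17 genes that act on MYC protein turnover, 1 was higher and 0 were lower in edgeR and likewise in DESeq2, and 3 higher and 1 lower had an unadjusted p under 0.05, beside 22.9% of all genes tested. Pim2, a serine/threonine kinase that stabilizes MYC, had 20.6, 23.1 and 26.4 CPM in AI02, AI55 and AH74 and 9.34, 15.0 and 11.5 CPM in AI03, AI54 and AI56. Its groups were well apart (log2 fold change 0.95, standard error 0.16, adjusted p = 0.00205 in edgeR), with 1.22 within the first and 0.997 within the second series. Pim1, the most abundant gene of the list at 79.5 TPM, had 168, 173 and 205 CPM against 127, 172 and 162 CPM. The overlap was due to AI54, and the log2 fold change of 0.24 missed the threshold (adjusted p = 0.165 in edgeR) but passed it with the library series as a covariate (0.36, adjusted p = 0.00324 in edgeR) and without a filter on low counts (0.24, adjusted p = 0.0200 in edgeR). Without AH74 it was 0.15 and without AI03 0.12.

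Of 97 genes that MYC is known to activate, all of them tested, 35 were lower (36.1%) and 0 higher in edgeR, beside 3.79% and 3.88% of all genes tested. An unadjusted p under 0.05 was reached by 62 lower and 1 higher gene, beside 11.5% and 11.3% of all genes tested. DESeq2 called 38 lower and 0 higher, beside 4.42% and 3.97%. The fitted value was below 0 for 88 of the 97 genes, beside 7584 of all 15184, and the median log2 fold change was -0.21, with -0.18 within the first and -0.24 within the second library series. Fitted values below 0 were shallow, with the lowest gene at -0.68, and 62 of the 97 genes were not DEGs in edgeR. The number of DEGs depended on single libraries, at 16 without AI02, 15 without AI55, 21 without AH74, 21 without AI54 and 13 without AI56, while the median stayed between -0.22 and -0.20 under 13 other settings. In all of these settings, 11 of the 35 genes remained DEGs.

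By function, all 38 genes of nucleolar and ribosome assembly had fitted values below 0, and 13 were DEGs (median -0.23). The DEGs of each function were all lower, beside 3.79% of all genes tested. In nucleotide, polyamine and one-carbon metabolism 9 of 16 were DEGs (median -0.26), in glycolysis and transport 4 of 9 (median -0.21), in translation 3 of 6 (median -0.21) and among mitochondrial genes 3 of 9 (median -0.22). In the cell cycle 2 of 8 were DEGs (median -0.11), and among other targets 1 of 11 (median -0.11). Whether these functions differ from each other was not tested.

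Srm, the spermidine synthase of polyamine synthesis, had the smallest p of the list. It had 88.1, 87.3 and 105 CPM in AI02, AI55 and AH74 and 134.5, 155 and 159.6 CPM in AI03, AI54 and AI56, so that all cKO libraries lay well below Ctrl (log2 fold change -0.68, standard error 0.085, adjusted p = 1.8e-04 in edgeR). Mthfd1, an enzyme of one-carbon metabolism, had 163, 168 and 158 CPM against 213, 205 and 226 CPM (log2 fold change -0.40). Nolc1, a nucleolar phosphoprotein, had 323, 342 and 326 CPM against 421, 400.2 and 462 CPM (log2 fold change -0.37). None of these genes overlapped between the groups. Phb2, a mitochondrial prohibitin, Slc16a1, a lactate transporter, and Noc4l, a factor of small ribosomal subunit assembly, had log2 fold changes of -0.36, -0.44 and -0.42. Ncl, for nucleolin, was the most abundant gene of the list at 430.5 TPM, with 3131, 3262 and 3061 CPM in AI02, AI55 and AH74 and 3721, 3803 and 4095 CPM in AI03, AI54 and AI56. Its 3 cKO libraries were again below all Ctrl libraries (log2 fold change -0.30, standard error 0.062, adjusted p = 0.00783 in edgeR).

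A different pattern was seen for Mcm5, a helicase subunit named after its values were seen. It had 171, 330 and 155 CPM in AI02, AI55 and AH74 and 343, 347 and 361 CPM in AI03, AI54 and AI56. The low level was thus found in AI02 and AH74, from different library series, whereas AI55 was close to Ctrl. The fitted difference (-0.68 on the log2 scale, adjusted p = 0.0416 in edgeR, standard error 0.19) was past the threshold under 7 of 13 other settings, not with DESeq2 (-0.68, adjusted p = 0.293) and not without AI02 (-0.53), AH74 (-0.48), AI03 (-0.69), AI54 (-0.69) or AI56 (-0.66), with adjusted p-values up to 0.293. Without AI55 it was -1.10 (adjusted p = 5.0e-06 in edgeR).

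**Figure D4:**
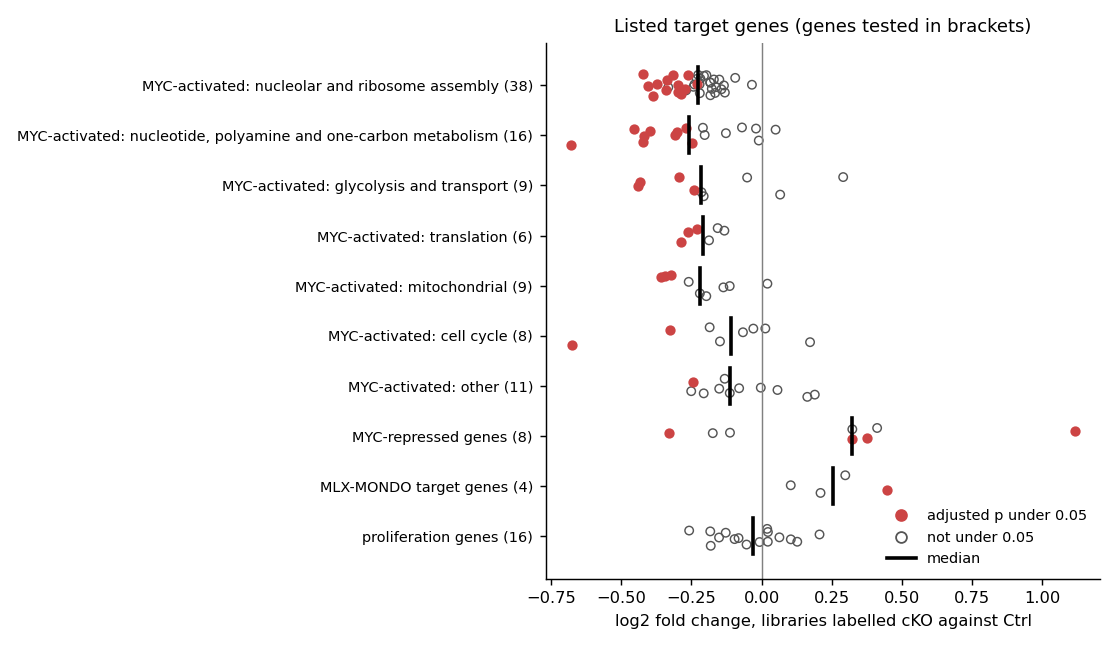
Log2 fold changes, libraries labelled cKO against Ctrl, of each tested gene of the target and proliferation lists (points, filled for an adjusted p under 0.05, spread vertically for sight alone), with the median of each list as a bar. Points of the MYC-activated groups lie mostly below 0, with list medians from -0.26 to -0.11, and those of 16 proliferation genes lie around 0.

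Of 16 proliferation genes of S phase and mitosis, 0 were DEGs in edgeR or DESeq2, 4 lower and 1 higher had an unadjusted p under 0.05 (22.9% of all genes tested had), and the median log2 fold change was -0.030. Over 13 other settings the median of the list ran from -0.085 (without AI03) to 0.0077 (without AI56). Without AI03, 1 gene of the list was a DEG. Mki67, the most abundant at 210 TPM, had 1768, 1661 and 1627 CPM in AI02, AI55 and AH74 and 1807, 1543 and 1733 CPM in AI03, AI54 and AI56, with overlapping groups. The list shares no gene with the MYC-activated list, and a difference between these lists was not tested.

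Of 10 genes that MYC is known to repress, 8 were tested, 3 higher and 1 lower, beside 3.88% and 3.79% of all genes tested, with a median log2 fold change of 0.32. An unadjusted p under 0.05 was reached by 4 higher and 1 lower, beside 11.3% and 11.5%. Cdkn1c, the cell cycle inhibitor p57, had 4.36, 5.27 and 6.31 CPM in AI02, AI55 and AH74 and 1.91, 2.67 and 2.69 CPM in AI03, AI54 and AI56, and its lowest cKO value was well above Ctrl (log2 fold change 1.12, standard error 0.26, adjusted p = 0.0171 in edgeR). Cdkn1b, the inhibitor p27, had 53.2, 61.7 and 57.5 CPM against 47.8, 43.6 and 46.5 CPM (log2 fold change 0.32, adjusted p = 0.0308 in edgeR). Ndrg1, a stress-responsive gene, had 113, 116 and 133 CPM against 93.9, 91.4 and 93.7 CPM (log2 fold change 0.38, adjusted p = 0.00485 in edgeR). Itgal, an integrin chain of leukocytes, went the other way, with 99.3, 85.8 and 95.8 CPM against 116, 110 and 127 CPM (log2 fold change -0.33, adjusted p = 0.0157 in edgeR). Single libraries mattered for these calls, and without AI55 or without AH74 the list held 1 higher DEG in place of 3. Cdkn1c missed the threshold without AI55 (1.12, adjusted p = 0.0664 in edgeR) or AH74 (0.98, adjusted p = 0.0914 in edgeR), and Cdkn1b without AI55, AH74, AI54 or AI56, with adjusted p-values over 13 settings up to 0.159. Itgal missed it without AI55 (-0.27, adjusted p = 0.110 in edgeR) or AI56 (-0.27, adjusted p = 0.0822 in edgeR). Itgb2, the most abundant of the list at 23.2 TPM, overlapped between the groups.

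Of 5 targets of MLX-MONDO dimers, 4 were tested and 1 was a higher DEG, beside 3.88% of all genes tested. All 4 had fitted values above 0, as had 7600 of all 15184 genes, but without AH74 it was 3 of 4. Txnip, an arrestin-fold protein that restrains glucose uptake, was also the most abundant at 93.9 TPM. It had 233, 305 and 267 CPM in AI02, AI55 and AH74 and 214, 193 and 183 CPM in AI03, AI54 and AI56, with every cKO library higher (log2 fold change 0.45, standard error 0.089, adjusted p = 0.00564 in edgeR). The median of the list was 0.25.

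The genes most like Myc over the 6 libraries, by Pearson correlation of log2 CPM among 14290 genes with a mean of at least 1 CPM, were Cluh (0.998), Oaf (0.994), Fam173a (0.994), Mt2 (0.993) and Rrbp1 (0.991). These values describe 6 libraries in 2 groups and contain the difference between the groups. A correlation above 0.95 with Myc was found for 209 genes. Cluh, which binds messenger RNAs of mitochondrial proteins, was a DEG with a log2 fold change of -0.43 (adjusted p = 7.6e-04 in edgeR). Oaf and Mt2 were also lower DEGs, while Fam173a and Rrbp1 were not DEGs.

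Promoters were searched for CACGTG, the E-box bound by MYC-MAX and MXD-MAX dimers, which reads the same on both strands. The windows, from RefSeq on GRCm38.p6, ran from 250 bases before to 50 bases after each annotated start. A window was given for 9 of the 10 network genes, all but Myc. The letters were found for 4 of these 9 genes (Max, Mlx, Mxd4 and Mnt) and for 24 of 86 matched MYC-activated genes (27.9%), beside 11.9% of 9846 tested genes with a window, 8.09% of all 27025 genes and 7.15% of all 32851 windows. Mycn, the other DEG of the network, had none in its window. Among matched MYC-activated genes, 7 of 24 with the letters and 24 of 62 without them were lower DEGs, with median log2 fold changes of -0.18 and -0.23. Among all matched genes tested, the lower DEGs were 43 of 1168 with and 369 of 8678 without the letters, and the higher DEGs 29 of 1168 with and 417 of 8678 without them. These differences were not tested. A match describes the sequence and is neither a binding site nor a cause of a change.

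The 250 bases upstream of the start are given, 5′ to 3′ as the gene is read and with the E-box in capitals, for the 3 network genes that hold it there and for Slc16a1, the one gene with it among Mthfd1, Nolc1, Phb2, Slc16a1, Noc4l and Ncl. Srm has no entry in the table. They show how its distance from the start varies, from 34 bases for Mlx to 117 for Mnt, 194 for Slc16a1 and 213 for Mxd4. Mlx lies at chr11:101087040-101087289 (plus strand), Mxd4 at chr5:34187711-34187960 (minus strand), Mnt at chr11:74830674-74830923 (plus strand) and Slc16a1 at chr3:104638414-104638663 (plus strand).
Mlx: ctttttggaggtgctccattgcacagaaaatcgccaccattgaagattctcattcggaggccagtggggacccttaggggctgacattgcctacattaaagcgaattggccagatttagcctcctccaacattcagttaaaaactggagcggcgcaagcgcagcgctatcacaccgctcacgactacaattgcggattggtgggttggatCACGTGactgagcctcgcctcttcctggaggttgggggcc
Mxd4: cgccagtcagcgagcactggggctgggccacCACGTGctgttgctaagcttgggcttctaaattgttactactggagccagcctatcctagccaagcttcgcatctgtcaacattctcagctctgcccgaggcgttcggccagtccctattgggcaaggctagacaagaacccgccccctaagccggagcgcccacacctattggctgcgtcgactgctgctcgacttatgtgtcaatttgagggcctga
Mnt: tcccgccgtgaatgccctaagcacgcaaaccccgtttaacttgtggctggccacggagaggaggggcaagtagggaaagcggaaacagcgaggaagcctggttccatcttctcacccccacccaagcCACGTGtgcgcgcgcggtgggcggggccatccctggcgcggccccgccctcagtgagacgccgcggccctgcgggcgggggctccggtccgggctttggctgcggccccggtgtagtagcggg
Slc16a1: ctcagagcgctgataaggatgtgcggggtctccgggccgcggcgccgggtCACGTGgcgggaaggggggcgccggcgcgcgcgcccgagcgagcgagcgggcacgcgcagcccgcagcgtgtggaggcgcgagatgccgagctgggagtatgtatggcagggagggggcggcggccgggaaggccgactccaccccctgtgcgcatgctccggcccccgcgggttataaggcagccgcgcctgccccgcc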

How the data were processed

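RNA of LSK cells from 3 cKO and 3 Ctrl mice was measured as stranded RNA-seq. Per the file headers, the labels and the paper's methods, the authors used bcl2fastq 2.17.1.14, aligned reads to mm10 (GRCm38) with GSNAP (2015-12-31) and deposited counts of uniquely aligned reads per gene, on the strand of the gene, made with featureCounts 1.5.0, without normalization or pooling. Gene models were those of Ensembl 81, and GENCODE M21 gave symbols for 98.8% of their identifiers.

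From these counts, differences were tested with edgeR 4.0.16 in R 4.3.3 (TMM, filterByExpr defaults, quasi-likelihood test, genotype as the only term), with Benjamini-Hochberg adjustment over 15184 genes and a threshold of 0.05. Dividing the size of the log2 fold change by the root of F gave its standard error. TPM used the exon lengths deposited with the counts, and log2 CPM a prior count of 2. DESeq2 1.42.0 and other settings were alternatives. The procedure was run on simulated counts with 50 genes at each of 4 log2 changes. It recovered 50 of 50 genes at -2, 38 at -1, 47 at 1 and 50 at 2, and called 8 unchanged genes. Smaller changes, such as those of the network genes, were not simulated. Exact permutation of 3 against 3 cannot go below p = 0.1.

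The genes and lists were chosen with earlier results of these data known. The library series were read from library numbers. Promoters came from RefSeq (GRCm38.p6). Named were all 10 network genes, Setd1b, up to 6 DEGs with the smallest adjusted p and the most abundant gene of each list, markers by level, and the 5 genes most like Myc.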

Additional observations from a re-analysis of the deposited data

How the results depend on the processing

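The log2 fold changes of the 10 network genes were recomputed under 13 other settings, 129 values in all, since Mycl dropped out when at least 10 counts were required in every library. Direction and side of the threshold were kept in 116 of these. Myc was a DEG in all 13, at log2 fold changes from -0.40 to -0.34. Of the 13 other values, 3 belonged to Mycn (0.70 with DESeq2, 0.43 without AH74, 0.69 without AI56). The other 10 were changes of sign, in Max and Mnt near 0 and in Mxd1 and Mycl within their standard errors of 0. With upper-quartile scaling these were 0.0092 for Max and 0.012 for Mnt. With 1 mouse left out they were 0.033 (without AI02) and 0.0039 (without AI56) for Max, 0.0085 (AI02), 0.020 (AI55) and 0.029 (AI03) for Mnt, -0.022 (AI54) for Mxd1, and 0.051 (AI55) and 0.19 (AI03) for Mycl. With 1 mouse left out the full ranges were -0.055 to 0.033 for Max, -0.039 to 0.029 for Mnt, -0.022 to 0.26 for Mxd1, 0.081 to 0.43 for Mxd3, 0.057 to 0.15 for Mxi1 and -0.33 to 0.19 for Mycl.

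The number of higher network genes was 0 in place of 1 with DESeq2, and from 0 to 1 with 1 mouse left out. The number of lower MYC-activated DEGs was from 13 to 28 with 1 mouse left out, in place of 35, and that of all DEGs from 604 to 1125, in place of 1164. These fits hold fewer samples. Without a filter on low counts, the number of all DEGs was 1682. In that fit the adjusted p in edgeR was 1.1e-12 for Mycn and 1.0e-19 for Mcm5, in place of 0.0139 and 0.0416. The difference in the log2 ratio of activators to antagonists was -0.047 in place of -0.35 as a mean of log2 (TPM + 0.5). By construction this weights Myc no more than Mycn or Mycl. Mean levels in Ctrl and cKO were 216 and 176 TPM for Myc, 17.2 and 29.1 TPM for Mycn and 0.219 and 0.206 TPM for Mycl. With 1 mouse left out, the difference in the log2 ratio of the sums was from -0.38 to -0.31.

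No paired analysis was possible because neither labels nor paper say which mice belong together. The library series was fitted as a covariate instead. Depth limits Mycl, with at most 14 counts per library. The median of all genes moved by at most 0.015 on the log2 scale under any setting.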
